A study of Mus musculus with 6 samples.

Results

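The Hox cluster genes were examined in whole embryonic mouse brains at E11.5, a stage when the hindbrain is divided into segments. Members were all genes whose annotated symbol is Hox followed by a cluster letter (a to d) and a paralog number, and where a gene had several probe sets the brightest on average stood for it. Of the 39 such genes in the RefSeq gene table, 31 were measured by a probe set that names 1 gene, out of 12393 genes measured in all. They comprise 9 Hoxa genes on chromosome 6, 9 Hoxb genes on chromosome 11, 6 Hoxc genes on chromosome 15 and 7 Hoxd genes on chromosome 2. In the diabetic group 3 embryos came from mothers with diabetes induced by streptozotocin (STZ), which destroys the beta cells of the pancreas, and the series text describes these brains as malformed, while the other 3 embryos came from normal mice. All 6 were Swiss Albino mice, each brain was hybridized to its own array, and whether brains shared a litter is not given in the sources used here. Since the diabetic brains were also the malformed ones, these factors cannot be told apart.

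Hox genes encode homeodomain transcription factors that give cells their position along the head-to-tail axis. Within each cluster the genes lie in the order of their paralog numbers, low numbers being used farther forward in the embryo and high numbers farther back. In the nervous system the genes of low number pattern the segments of the hindbrain, the rhombomeres, and those of middle and high number pattern the spinal cord, whereas forebrain and midbrain lack Hox expression. The proteins bind DNA together with partners of the Pbx and Meis families, and retinoic acid and Fgf signals switch the clusters on. In a whole brain the Hox transcripts are therefore contributed by the hindbrain and by any cord or non-neural tissue dissected with it, and in bulk RNA fewer expressing cells cannot be told apart from less RNA per cell.

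RefSeq promoter sequences (build GRCm38.p6) were at hand for 18 of the 31 genes, in 20 windows of 250 bases before the start. The windows of members whose mean signal reached 100 and that had an entry are shown, because the level comparison turns on these genes. That of Hoxb1, with a mean of 83.6, is shown as well. Capitals mark matches on either strand to TGATNNAT, a site bound by Hox with Pbx.
Hoxa2, chr6:52164832-52165081, minus strand: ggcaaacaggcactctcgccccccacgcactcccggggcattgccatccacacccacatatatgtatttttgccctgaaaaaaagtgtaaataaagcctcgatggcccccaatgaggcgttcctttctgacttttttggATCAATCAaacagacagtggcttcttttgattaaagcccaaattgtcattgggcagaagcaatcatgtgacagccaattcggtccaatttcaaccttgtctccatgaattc
Hoxb1, chr11:96365508-96365757, plus strand: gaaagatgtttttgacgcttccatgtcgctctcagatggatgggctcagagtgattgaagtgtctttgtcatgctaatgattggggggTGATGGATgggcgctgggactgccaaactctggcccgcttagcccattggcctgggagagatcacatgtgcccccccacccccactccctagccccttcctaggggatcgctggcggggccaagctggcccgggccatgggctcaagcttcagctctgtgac
Hoxa3, chr6:52213068-52213317, minus strand: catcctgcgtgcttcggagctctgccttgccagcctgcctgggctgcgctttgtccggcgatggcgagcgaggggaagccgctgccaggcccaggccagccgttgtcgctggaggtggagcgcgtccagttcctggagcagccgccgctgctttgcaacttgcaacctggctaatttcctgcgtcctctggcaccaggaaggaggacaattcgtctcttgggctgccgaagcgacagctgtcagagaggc
Hoxa9, chr6:52227371-52227620, minus strand: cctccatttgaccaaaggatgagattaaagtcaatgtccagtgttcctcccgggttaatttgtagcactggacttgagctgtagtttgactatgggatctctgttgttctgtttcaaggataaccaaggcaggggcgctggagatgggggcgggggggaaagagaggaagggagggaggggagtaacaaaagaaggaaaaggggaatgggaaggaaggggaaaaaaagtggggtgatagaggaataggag

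A TGATNNAT match was present in 3 of the 20 Hox windows (15.0%) and in 7.68% of all 32851 windows of the same length. Hoxa2 and Hoxb1 each held 1 match, and the windows of Hoxa3, also a rhombomere gene, and of Hoxa9 held 0. Those of Hoxb4, Hoxc4 and Hoxd1, also of low paralog number and not shown, held 0. Hoxb1 is shown outside the rule of mean signal, so the sequences shown are not a fair sample of the 20 windows. The remaining match lay in a window of Hoxd11, a gene of high paralog number, which is not shown. AGGTCA, the core hexamer bound by retinoic acid receptors, was found on either strand in 4 Hox windows (20%) against 14.0% of all windows, none of them among the 4 sequences shown. The Hox windows held a median of 13 CG dinucleotides (2 to 35), against a median of 6 over all windows. These matches describe the letters of the windows only.

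Signals were read against a value of 100, since the files hold no detection calls, and a signal below it does not show that a transcript was absent. Probe sets differ in affinity, so changes are compared between arrays. Counts of genes at or above 100 describe probe set signals and do not rank genes by amount of transcript. The arrays lie in 2 value tables, diabetic replicates 1 and 2 with control replicates 1 and 2 in the first and diabetic replicate 3 with control replicate 3 in the second, on different chip versions. Low signals were lower in the second table: the median Hox signal was 50.1, 52.7 and 11.4 on diabetic replicates 1 to 3, and 59.2, 34.0 and 6.99 on control replicates 1 to 3. Over all genes the median signal was 278, 262 and 213 on the diabetic and 275, 277 and 207 on the control arrays. All differences were therefore taken within a table.

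Few Hox genes reached a signal of 100. Of the 31 members, 6 had a mean signal of at least 100 over the 6 arrays, against 69.7% of all genes, and Hoxb2 alone reached it on all 6. The last member above the value was Hoxb3 with a mean of 101 and the first below it was Hoxa11 with 86.1. Members at or above 100 numbered 8, 6 and 2 on diabetic replicates 1 to 3, against 7, 10 and 2 on control replicates 1 to 3. By position, 4 of the 9 members of paralog number 1 to 4 had a mean of at least 100, 1 of 9 members of number 5 to 8, and 1 of 13 members of number 9 to 13. By cluster, the counts were 3 of 9 Hoxa, 2 of 9 Hoxb, 1 of 6 Hoxc and 0 of 7 Hoxd genes. Both paralog 2 genes and both measured paralog 3 genes were among the 6.

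**Figure D1:**
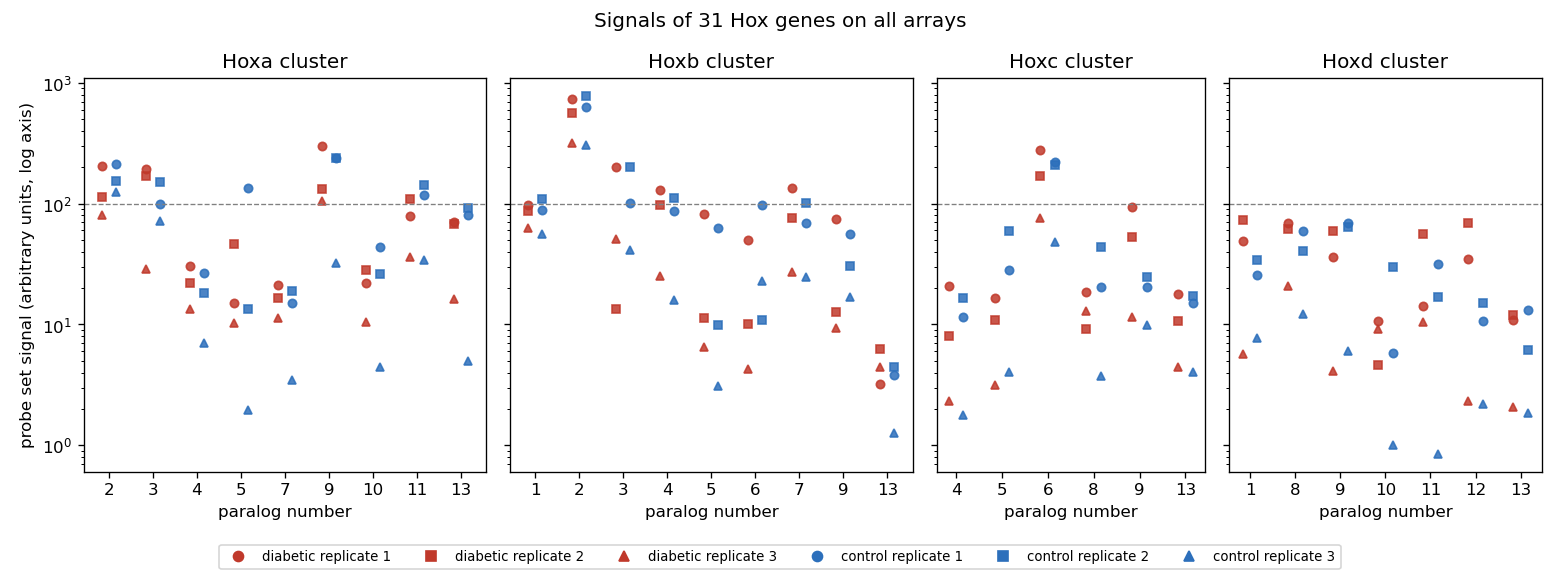
Probe set signals (arbitrary units, log axis) of the 31 Hox genes by cluster and paralog number, with a point for each of the 3 diabetic and 3 control arrays and a dashed line at a signal of 100. Hoxb2 lies above the line on all 6 arrays, the 7 Hoxd genes lie below it on all 6, and replicate 3 of each group, in the second table, tends to be lowest.

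The paralog 2 genes are used farthest forward in the hindbrain. Hoxb2, which acts in the rhombomeres and is needed for facial motor neurons, had signals of 738, 559 and 316 on diabetic replicates 1 to 3, against 627, 774 and 303 on control replicates 1 to 3. The groups overlapped in the first table, and the means were 538 ± 212 in diabetic and 568 ± 241 in control brains (SD, n = 3 each). These means span both tables, so each SD includes the lower signal of the second table and is not only a spread between brains. The log2 change, diabetic minus control, was -0.055 ± 0.18 (SE), with a limma adjusted p of 0.952. Hoxa2, which patterns the anterior rhombomeres and the second pharyngeal arch, had signals of 203, 113 and 81.1 on the diabetic arrays, against 213, 154 and 124 on the control arrays. Each diabetic signal lay below the control signal of the same number, yet the groups overlapped in the first table, since diabetic replicate 1 exceeded control replicate 2. Its log2 change was -0.29 ± 0.23 (SE), with a limma adjusted p of 0.793, and it depended on single arrays. Without diabetic replicate 2 it was -0.12 and without diabetic replicate 1 -0.52.

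The paralog 3 genes act in the posterior rhombomeres, the pharyngeal arches and the glands derived from them. Hoxa3 had signals of 195, 169 and 28.9 on diabetic replicates 1 to 3, against 98.7, 151 and 71.3 on control replicates 1 to 3. The diabetic arrays were the higher ones in the first table and the lower one in the second, with log2 differences of 0.47 and -0.76 in that order. A further Hoxa3 probe set, of the kind designed to match several transcripts, gave -0.28 and -0.16, so the probe sets differed in sign in the first table. Hoxb3 had signals of 203, 13.5 and 51.0 on the diabetic arrays, against 101, 200 and 41.2 on the control arrays. Diabetic replicate 2 stood far below its group, and the log2 change of -0.45 ± 0.57 (SE, limma adjusted p = 0.869) became 0.32 without that array. Hoxb1, which gives the fourth rhombomere its identity, had signals of 97.5, 86.8 and 63.2 on the diabetic arrays, against 88.5, 109 and 56.1 on the control arrays, and its log2 change was -0.011 ± 0.15 (SE).

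Hoxc6 and Hoxa9, genes of the spinal cord and trunk, were the members of higher number whose mean reached 100. Hoxc6, which marks motor neurons at forelimb level, had signals of 279, 169 and 75.9 on diabetic replicates 1 to 3, against 223, 208 and 48.3 on control replicates 1 to 3. Its diabetic arrays stood both above and below the controls in the first table, and the log2 change was 0.15 ± 0.21 (SE, limma adjusted p = 0.884). Of its other probe sets, 1, of the kind that can cross-hybridize, had nearly the same signals (250, 170 and 54.1 on the diabetic arrays, against 197, 194 and 49.1 on the control arrays). The other stayed at or below 28.8 on every array. Its log2 differences were -0.40 in the first and -0.37 in the second table, against 0.016 and 0.42 for the probe set used. Hoxa9 had signals of 303, 132 and 105 on the diabetic arrays, against 239, 239 and 32.4 on the control arrays. The first-table log2 difference was -0.21 and the second-table one 1.09, the largest second-table difference of any member. The further Hoxa9 probe set had signals of 58.0, 63.7 and 3.31 on the diabetic arrays, against 22.6, 10.5 and 0.557 on the control arrays, with log2 differences of 0.95 and 0.12, so these probe sets also differed in sign in the first table.

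**Figure D2:**
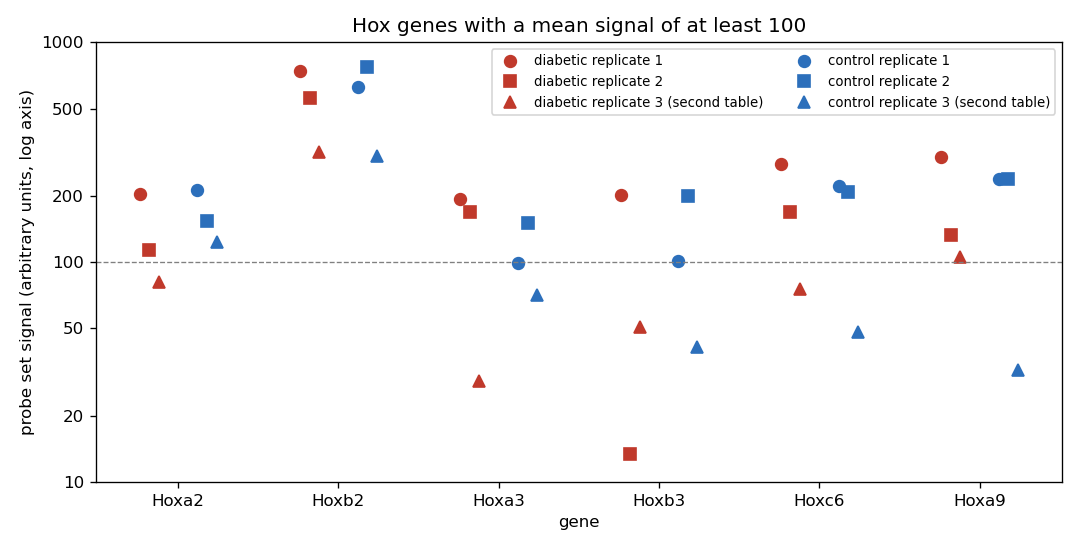
Probe set signals (log axis) of the 6 Hox genes whose mean signal reached 100, diabetic arrays left of control arrays for each gene, 1 point per array. For Hoxb2 the diabetic and control points interleave between 303 and 774, and for Hoxb3 diabetic replicate 2 lies apart at 13.5.

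No Hox gene passed the test between diabetic and control brains. In limma, 0 of the 31 members passed an adjusted p of 0.05, where 0% of the 12393 genes passed, and the members' adjusted p ran from 0.753 to 0.990. Their log2 changes had a median of 0.0093 (0.023 over all genes) and ran from -0.48 to 0.63, with 16 above and 15 below 0, where 54% of all genes were above 0. The sign was the same in both tables for 18 of 31 members and for 51.5% of all genes. At an unadjusted p under 0.05 there were 2 members, both higher in diabetic brains, against 6.55% of all genes (3.58% higher and 2.97% lower). The members were Hoxc9 and Hoxd12, and which genes passed depended on single arrays. Without diabetic replicate 1 they were Hoxa2 and Hoxd11, and without diabetic replicate 2 Hoxa9 and Hoxc9. The count was 0 without control replicate 1, 1 (Hoxb6) without control replicate 2 and 4 (Hoxc5, Hoxc9, Hoxd1 and Hoxd12) without replicate 3 of either group. The standard errors of the members ran from 0.14 to 0.57 with a median of 0.21. The medians by position were 0.0093 for paralog numbers 1 to 4, 0.13 for 5 to 8 and -0.026 for 9 to 13. By cluster they were -0.026 for Hoxa, -0.011 for Hoxb, -0.012 for Hoxc and 0.25 for Hoxd genes. The tables differed in these medians: Hoxa had -0.21 in the first and 0.22 in the second table, Hoxb -0.072 and 0.11, Hoxc -0.028 and 0.038, and Hoxd 0.19 and 0.0094.

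**Figure D3:**
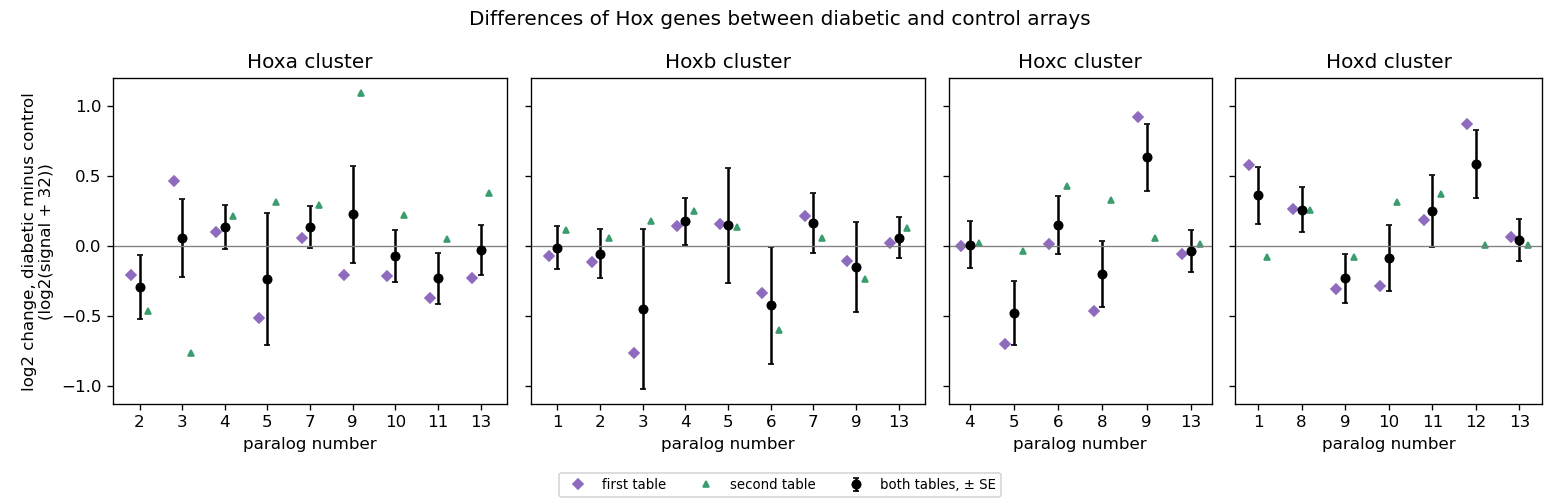
Log2 change of each Hox gene, diabetic minus control, on the log2(signal + 32) scale, by cluster and paralog number, with black points and bars for the fit over both tables ± SE and coloured points for the difference within each table. Changes lie between -0.48 and 0.63, and 18 of the 31 genes have the same sign in both tables.

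The highest fitted changes were those of Hoxc9, Hoxd12 and Hoxd1. Hoxc9, which specifies thoracic motor columns, had signals of 94.4, 52.7 and 11.6 on diabetic replicates 1 to 3, against 20.5, 24.9 and 9.96 on control replicates 1 to 3. Both diabetic arrays of the first table lay above both controls, while the arrays of the second table were close together. The log2 change was 0.63 ± 0.24 (SE), with an unadjusted limma p of 0.032 and an adjusted p of 0.753, made up of table differences of 0.92 and 0.054. Without diabetic replicate 1 the change was 0.38. Hoxd12, a gene of the limb bud and tail end, had signals of 35.0, 68.8 and 2.33 on the diabetic arrays, against 10.6, 15.1 and 2.22 on the control arrays. It had a log2 change of 0.58 ± 0.24 (SE), with an unadjusted limma p of 0.045 and an adjusted p of 0.753, and 0.0046 in the second table. Without diabetic replicate 2 the change was 0.33. Hoxd1 had signals of 49.0, 73.1 and 5.68 on the diabetic arrays, against 25.6, 34.0 and 7.76 on the control arrays, and a log2 change of 0.36 ± 0.20 (SE). It was higher on both diabetic arrays of the first table and lower on that of the second. Without diabetic replicate 2 the change was 0.19. All signals of these 3 genes were below 100.

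On the lower side, Hoxc5, a gene of the cervical cord, had signals of 16.7, 10.9 and 3.15 on diabetic replicates 1 to 3, against 28.1, 59.6 and 4.004 on control replicates 1 to 3. Each diabetic array was below the controls of its table, and the log2 change was -0.48 ± 0.23 (SE, limma adjusted p = 0.753), with -0.035 in the second table and -0.24 without control replicate 2. Hoxb6 had signals of 50.1, 10.1 and 4.26 on the diabetic arrays, against 96.6, 10.8 and 23.0 on the control arrays, and its log2 change of -0.42 ± 0.42 (SE) became 0.0036 without control replicate 1. Hoxd9 had signals of 36.4, 59.8 and 4.09 on the diabetic arrays, against 68.5, 63.98 and 6.04 on the control arrays, with a log2 change of -0.23 ± 0.17 (SE), which was -0.089 without diabetic replicate 1. Hoxd8 had signals of 69.6, 62.1 and 20.9 on the diabetic arrays, against 59.2, 40.9 and 12.3 on the control arrays, with a log2 change of 0.26 ± 0.16 (SE) and nearly equal differences of 0.26 in each table. Without control replicate 2 it was 0.17. The second table has 1 array per group, so it sets only a direction. All diabetic signals lay on the same side of their table's controls, in both tables, for 5 of 31 members, against 20.8% of all genes. The diabetic signals were the higher ones for 3 of them (Hoxc9, Hoxd8 and Hoxd12, against 11.8% of all genes) and the lower ones for 2 (Hoxc5 and Hoxd9, against 9.07%).

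The remaining members included the paralog 4 genes Hoxa4, Hoxb4 and Hoxc4, with log2 changes of 0.14, 0.18 and 0.0093, that of Hoxa4 from a probe set of the kind that can cross-hybridize. Hoxb4, active from the posterior hindbrain backwards, had signals of 130, 97.4 and 25.1 on diabetic replicates 1 to 3, against 87.7, 112 and 15.96 on control replicates 1 to 3, which overlapped in the first table. Its further probe set had 149, 121 and 4.11 on the diabetic arrays, against 90.2, 63.9 and 2.43 on the control arrays, with no overlap inside either table. Hoxb7 had 136, 75.9 and 27.1 on the diabetic arrays, against 68.8, 102 and 24.6 on the control arrays, again with overlap. Single arrays set some of these genes apart inside a group. Hoxa5, whose product is needed in the lung and cervical skeleton, had 134 on control replicate 1 and 13.4 on control replicate 2, and Hoxb5 had 81.9 on diabetic replicate 1 and 62.9 on control replicate 1 but 11.3 or less on the other arrays. Of the genes of highest number, which pattern limb, tail and genital buds, Hoxa13 had signals of 70.2, 67.8 and 16.1 on the diabetic arrays, against 80.3, 92.6 and 4.99 on the control arrays. Hoxb13, Hoxc13 and Hoxd13 stayed at or below 17.9 on every array.

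Hoxb8, Hoxd3 and Hoxd4 were covered only by probe sets shared with a neighbour, and the remaining Hox genes are not analysed here. A probe set annotated to both Hoxd3 and Hoxd4 had signals of 328, 181 and 143 on diabetic replicates 1 to 3, against 224, 329 and 85.8 on control replicates 1 to 3. The groups overlapped in the first table, and which of these genes the signal came from cannot be told. A second such probe set stayed at or below 62.5. A probe set annotated to both Hoxb7 and Hoxb8 had 43.6, 43.8 and 10.5 on the diabetic arrays, against 90.3, 63.5 and 11.9 on the control arrays, lower on each diabetic array than on the controls of its table.

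In the first table, the Hox signals of brains of the same group also differed from each other. The median absolute difference between diabetic replicates 1 and 2 was 0.38 on the log2 scale and that between control replicates 1 and 2 was 0.27, against 0.21 for the diabetic minus control difference in that table, which is between means of 2 arrays and so varies less than a difference between single arrays. For 25 of 31 members, either the diabetic or the control pair differed by more than the groups did, which held for 73.3% of all genes. On diabetic replicate 1, 20 of 31 members lay above the control mean of the table (54.4% of all genes and 59.6% of those with a mean signal under 100), with a median of 0.14. On diabetic replicate 2, 8 of 31 did (49% of all genes and 51.8% of those with a mean signal under 100), with a median of -0.15. On that array 1 of 9 Hoxa, 1 of 9 Hoxb and 1 of 6 Hoxc genes lay above the control mean, against 5 of 7 Hoxd genes. On diabetic replicate 3, 24 of 31 members lay above control replicate 3 (54.7% of all genes), with a median of 0.11. Among the 25 members with a mean signal under 100 it was 20, where 57.4% of all genes of such signal did so.

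**Figure D4:**
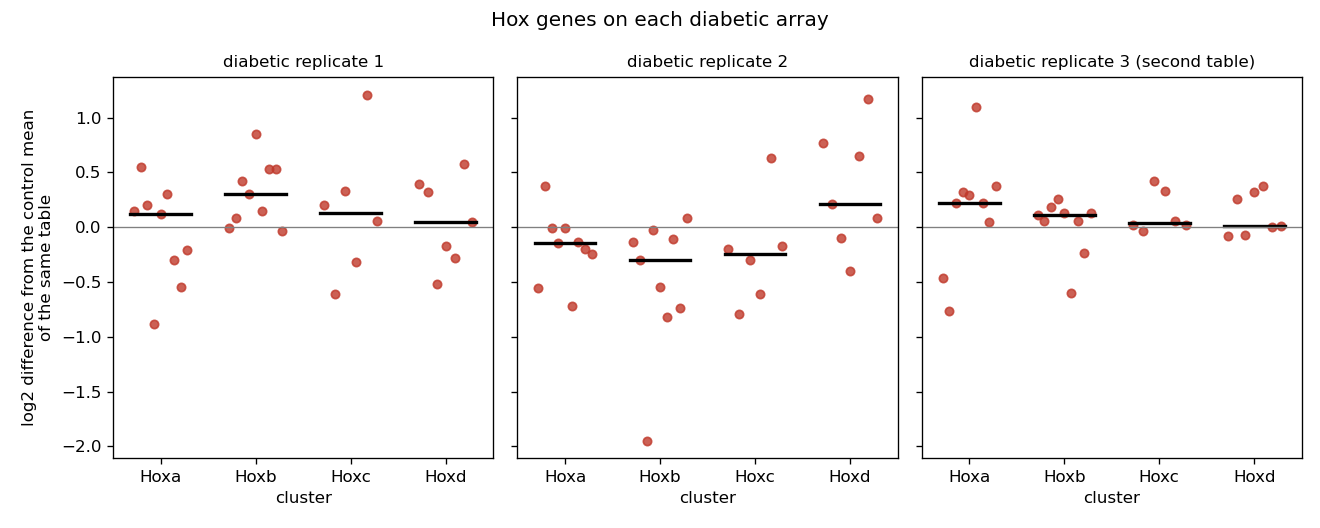
Log2 difference of each Hox gene from the control mean of the same table on each of the 3 diabetic arrays, by cluster, with a point per gene and a bar at the cluster's median. Cluster medians are 0.12, 0.30, 0.13 and 0.045 for Hoxa, Hoxb, Hoxc and Hoxd on diabetic replicate 1 and -0.15, -0.30, -0.25 and 0.21 on diabetic replicate 2.

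Comparing diabetic replicate 1 with diabetic replicate 2, 8 of 9 Hoxb genes, 6 of 6 Hoxc genes and 6 of 9 Hoxa genes were higher on replicate 1, as were 2 of 7 Hoxd genes. Over all clusters this was 22 of 31, against 54.8% of all genes and 57% of those with a mean signal under 100. The median gap was 0.64 for Hoxb and 0.35 for Hoxc genes and -0.38 for Hoxd genes. By position, 8 of 9 members of number 1 to 4 and 8 of 9 of number 5 to 8 were higher on replicate 1, against 6 of 13 of number 9 to 13. Between control replicates 1 and 2, 13 of 31 members were higher on replicate 1 (48.9% of all genes and 45.9% of those with a mean signal under 100). These are differences between single brains of 1 group and carry no test.

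The partners of the Hox proteins had 8 of 9 listed genes measured, of which 7 had a mean signal of at least 100. In limma 0 of the 8 passed the adjustment and 1 (Pbx4) had an unadjusted p under 0.05, against 6.55% of all genes, with 4 above and 4 below 0 and a median log2 change of 0.0020. Pbx4 had signals of 94.4, 111 and 34.4 on diabetic replicates 1 to 3, against 50.6, 63.8 and 22.8 on control replicates 1 to 3, without overlap within either table, and a log2 change of 0.49 ± 0.16 (SE). With all Pbx4 probe sets averaged the change was 0.036. Pknox2, a relative of Meis, had 0.40 ± 0.18 and Pknox1 -0.29 ± 0.20 (SE), the last being -0.054 with its probe sets averaged and -0.098 without diabetic replicate 2.

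Signals and enzymes that act upstream of the clusters had 21 of 25 listed genes measured, and 0 passed the adjustment in limma while 2 (Gdf11 and Fgf8) had an unadjusted p under 0.05, against 6.55% of all genes, with 10 above and 11 below 0 and a median log2 change of -0.0044. Gdf11, a secreted factor that sets the position of posterior Hox expression in the trunk, had signals of 214, 174 and 37.3 on the diabetic arrays, against 68.2, 94.3 and 27.2 on the control arrays. The diabetic arrays were higher in both tables, and the log2 change was 0.74 ± 0.21 (SE, limma adjusted p = 0.753). Fgf8, the growth factor of the midbrain-hindbrain boundary, had 195, 166 and 85.2 on the diabetic arrays, against 84.9, 159 and 51.9 on the control arrays, also without overlap within a table, and a log2 change of 0.50 ± 0.21 (SE), which was 0.29 without control replicate 1. Tshz1, a zinc finger gene of the trunk, had -0.48 ± 0.22, and -0.28 with its probe sets averaged or -0.29 without replicate 3 of either group. Cyp26a1, the enzyme that clears retinoic acid, was chosen after its values were seen: it had 282, 267 and 103 on the diabetic arrays, against 291, 376 and 159 on the control arrays, and a log2 change of -0.33 ± 0.16 (SE, limma adjusted p = 0.753).

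Polycomb and trithorax genes, whose products keep Hox clusters shut or open, had 22 of 26 listed genes measured and 0 passed in limma with or without the adjustment, with 12 above and 10 below 0 and a median log2 change of 0.023. Pcgf2, a Polycomb subunit, had 0.53 ± 0.28 (SE), with a negative sign when its probe sets were averaged. Rnf2, the ligase that marks histone H2A with ubiquitin, had -0.39 ± 0.24 and the chromodomain gene Cbx8 0.39 ± 0.26. Rnf2 had -0.041 with its probe sets averaged, and Cbx8 had 0.13 without diabetic replicate 2 and 0.68 without diabetic replicate 1. Genes lying at the ends of the Hox clusters had 7 of 12 measured and 0 passed with or without the adjustment, with a median of 0.10. Evx1 and Evx2, homeobox genes beside the Hoxa and Hoxd clusters, had log2 changes of 0.44 ± 0.28 and 0.17 ± 0.18 (SE), and Hibadh, a metabolic gene beside Hoxa, had 0.14 ± 0.16. With 1 array left out, Evx1 ran from 0.089 (without diabetic replicate 2) to 0.74 (without diabetic replicate 1) and Evx2 from 0.030 (without diabetic replicate 1) to 0.34 (without diabetic replicate 2). Hibadh had 0.041 without diabetic replicate 2.

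Markers of tissues that could hold Hox transcripts, and of forebrain and midbrain, which lack Hox expression, were measured beside these genes. Hindbrain and cord genes had 13 of 17 measured members with a mean signal of at least 100, and their summed signal was 5491, 4471 and 4188 on diabetic replicates 1 to 3, against 4696, 5106 and 4642 on control replicates 1 to 3. The list's median log2 change was -0.0076, with 8 above and 9 below 0 and 0 passing in limma with or without the adjustment, Epha4 having 0.42 ± 0.19, Lhx1 -0.75 ± 0.39 and Tbx20 0.28 ± 0.16 (SE). Epha4 had 0.11 with its probe sets averaged, and Lhx1 had -0.24 without diabetic replicate 2 and -1.21 without diabetic replicate 1. The first-table median was -0.072 and the second-table median 0.18. Mnx1, which defines somatic motor neurons, had signals of 60.9, 4.13 and 13.8 on the diabetic arrays, against 44.8, 64.1 and 10.4 on the control arrays. It was lowest on diabetic replicate 2, and it was chosen after its values were seen. On that array 7 of the 17 measured list members lay above the control mean of the first table, Epha2 and Gata3 among them, against 49% of all genes. Forebrain and midbrain genes, 10 of 13 with a mean of at least 100, summed to 4946, 5110 and 5493 on the diabetic arrays, against 5153, 4823 and 6432 on the control arrays. Each array had 7 to 11 of these 13 genes at or above 100. Their median log2 change was -0.020, with Nkx2-1 at 0.37 ± 0.30, Lhx2 at -0.22 ± 0.22 and Irx3 at -0.11 ± 0.17 (SE), and 0 passed with or without the adjustment. The first-table median was 0.079 and the second-table median -0.24, and 2 of 13 had the same sign in both. Nkx2-1 had 0.074 without replicate 3 of either group. Irx3 had the highest mean signal of this list, 1641, so it weighs most in the sums. Whether the listed genes were expressed only in forebrain and midbrain was not tested.

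Mesoderm and limb markers, 13 of 22 with a mean of at least 100, summed to 6199, 5826 and 4457 on the diabetic arrays, against 6047, 6237 and 6356 on the control arrays. Each array had 10 to 15 of these 22 markers at or above 100. Their median log2 change was -0.19, with 6 above and 16 below 0, where 54% of all genes were above. In limma 0 passed after adjustment and 5 of 22 had an unadjusted p under 0.05, against 6.55% of all genes. The first-table median was 0.029 and the second-table median -0.34. Tbx15, Myod1 and Myf5 had -0.66 ± 0.19, -0.50 ± 0.18 and -0.58 ± 0.22 (SE). The others under 0.05 were Meox2, lower at -0.59 ± 0.24, and Pax1, higher in diabetic brains at 0.50 ± 0.21 (SE). Signals of Myf5 and Pax1 were low, with means of 19.1 and 29.3. Tbx15 had -0.37 with its probe sets averaged, and Myf5 had -0.30 without replicate 3 of either group. Neural crest and ganglion markers, 9 of 10 with a mean of at least 100, summed to 3681, 3521 and 2440 on the diabetic arrays, against 3768, 3510 and 2923 on the control arrays. Their median was -0.028, with Tfap2a at -0.34 ± 0.22, Ednrb at -0.29 ± 0.19 and Sox10 at 0.28 ± 0.18 (SE), and 0 passed with or without the adjustment. With probe sets averaged, Sox10 had 0.11 and the signs of Tfap2a and Ednrb turned positive. Some listed markers had very low signals, such as Lmx1b with 1.69 on control replicate 3 and Myf5 with 2.04 on diabetic replicate 3. The part of these tissues in the Hox signals was not tested.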

How the data were processed

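Total RNA of 6 brains was measured on Affymetrix arrays, MOE430A for the first value table and Mouse430A_2 for the second, per the file headers. The authors deposited linear probe set intensity values, which have a 2% trimmed mean of 500.1 to 500.2 on every array. The submitters' processing notes name GCOS as the software, with no version or algorithm. Of 22690 probe sets, 20380 name 1 gene, 691 several and 1555 none, besides 64 controls. Of the probe sets that name 1 gene, 20351 matched RefSeq by identifier.

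Signals were used as deposited, on the log2(signal + 32) scale, which understates changes of low genes. Limma 3.58.1 in R 4.3.3 (lmFit, eBayes, two-sided, Benjamini-Hochberg over 12393 genes, threshold 0.05) compared groups with the value table as a block, over all genes without a filter on signal, with 3 residual degrees of freedom and a prior of 4.43. Figures per table are differences with no test, and the second table has 1 array per group. The number of arrays limits the precision, and p-values measure only the spread between these brains.

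Replicate numbers were checked for pairing: same-numbered arrays had correlated deviations from their group means (0.391, 0.381 and 0.726), but so did crossed ones (0.507 and 0.285), numbers 1 and 2 lying in the same table. Within the first table, the gap between the control arrays and that between the diabetic arrays correlated at -0.015 across genes. The fit was tested on simulated data with independent noise. At a limma adjusted p under 0.05 it recovered 82 of 100 log2 changes of size 1 and 100 of 100 of size 2, with 14 false calls. The changes were added on the log2(signal + 32) scale to genes drawn from all genes. The median of the mean signals was 261 for all genes and 33.5 for the Hox genes. Recovery for genes of such low signal was not measured, so these rates do not carry over to the Hox genes.

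Members and lists were chosen with earlier results of these data known. Signals per array are given for members with a mean signal of at least 100, for the 3 highest and 3 lowest log2 changes, and for an unadjusted p under 0.05. They are also given for members whose diabetic signals all lay on the same side of their table's controls in both tables. Signals of some other members are given as well. From each other list the 3 genes of smallest p are named, and from the mesoderm and limb list also the others with an unadjusted p under 0.05.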

Additional observations from a re-analysis of the deposited data

How the results depend on the processing

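Over 19 alternatives, 0 Hox genes passed the adjustment in limma under any setting that gives a test, and 0 of all genes did. The median log2 change of the Hox genes ran from -0.058 to 0.11. The number of members at an unadjusted p under 0.05 was 2, and it was 1 with a pseudocount of 64, 0 with no block, 0 among the 6 members of a mean signal of at least 100, 3 with array weights or with all probe sets of a gene averaged, and 4 in the first table alone, where 8.17% of all genes passed. With quantile normalization it stayed at 2, but for Hoxc5 and Hoxc9 in place of Hoxc9 and Hoxd12. Leaving out 1 array at a time gave 0 to 4: 0 without control replicate 1, 1 without control replicate 2, and 4 without replicate 3 of either group, when the lone array left in that table informs no difference. Over all genes the same count was 812, and it was 130 with no block and 518 without control replicate 1. With the replicate block it was 779 over all genes and 2 among the members, which were Hoxc9 and Hoxd12 as before, and 0 genes passed the adjustment with or without it. With all probe sets of a gene averaged, log2 changes were -0.091 for Hoxa3, -0.055 for Hoxc6, 0.019 for Ednrb, -0.0040 for Pcgf2 and 0.030 for Tfap2a, against positive values for Hoxa3, Hoxc6 and Pcgf2 and negative ones for Ednrb and Tfap2a with 1 probe set. In the first table alone they were -0.21 for Hoxa9 and 0.079 for Irx3. Leaving out 1 array at a time, changes ran from -0.20 to 0.47 for Hoxa3, -0.21 to 0.64 for Hoxa9, -0.15 to 0.070 for Hoxb2, -1.04 to 0.32 for Hoxb3, -0.90 to 0.0036 for Hoxb6, -0.18 to 0.079 for Irx3 and -0.40 to 0.0018 for Lhx2. The second table alone, with 1 array per group, gives differences and no test. For signals under 100 the background step of the authors' software, which the sources used here do not describe, limits what a difference shows.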
